A study of Mus musculus with 3 samples.

Results

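A set of 10 genes of the Hedgehog and Notch signalling pathways was followed through 3 single-cell libraries of ectopic tissue masses. They were taken by symbol from the 31053 genes of the count files: 4 Hedgehog genes (Ptch1, Gli1, Gli2 and Gli3) and 6 Notch genes (Notch1, Notch2, Notch3, Jag1, Hes1 and Heyl). All 10 symbols matched 1 row each. The masses came from CD1 mice, an outbred strain, and were dissociated 5 days after implantation. The first library, Matrigel, held cells around implants of the basement membrane gel alone. The second, called IgG here, held cells around Matrigel/rhBMP2, the gel with recombinant human BMP2, in mice given a pre-immune IgG systemically. The third, called antibody here, held cells around the same Matrigel/rhBMP2 implants in mice given systemically an antibody that neutralizes activin A (nAct Ab). BMP2 triggers endochondral bone formation where it is implanted, and activin A is a related signalling protein. The labels used here do not say how many mice each library holds, their age or sex, or the doses. No IgG is named for the Matrigel mice, so effects of BMP2 and of IgG cannot be told apart when IgG is set against Matrigel.

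In the Hedgehog pathway, ligands such as Ihh bind the receptor Ptch1 and thereby release Smo, which changes the processing of the Gli transcription factors. Gli1 and Gli2 mainly activate target genes, Gli3 is mainly known as a repressor, and Ptch1 and Gli1 are themselves targets, so their transcripts are widely used as a readout. In the Notch pathway, a ligand such as Jag1 on 1 cell binds a Notch receptor on a neighbour, the receptor is cleaved, and its inner part joins the DNA-binding protein Rbpj to switch on repressors of the Hes and Hey families. Both pathways are known for roles in cartilage and bone: Ihh paces chondrocyte growth, and Notch holds skeletal progenitors back from differentiating.

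Each gene was described in mesenchymal cells, defined by Col1a1, Col1a2 and Col3a1 making up at least 1% of a cell's UMIs (unique molecular identifiers, each standing for 1 captured transcript), and in all other cells. By this rule, mesenchymal cells were 1982 of 8541 with Matrigel alone (23.2%), 1478 of 5669 with IgG (26.1%) and 591 of 5675 with the antibody (10.4%). The label of the class held: 9 of 9 mesenchymal markers, among them Pdgfra and Dcn, were seen in at least 25% of these cells in each library, and 0 of 9 reached that share in the other cells. The mesenchymal cells were deep, with median UMIs of 8753, 17191 and 19185, against 2872, 3089 and 3148 in the other cells. Values of 3 libraries are given in the order Matrigel, IgG, antibody. Total depth was 38163880 to 46317250 UMIs a library, and pairs of libraries shared 7 to 19 cell barcodes. Near the collagen cut, 26, 161 and 62 cells of the class lay at 1% to 2% collagen, and 46, 68 and 21 other cells at 0.5% to 1%. Immune RNA was present in few mesenchymal cells: 3.18%, 4.06% and 4.57% held 5 or more UMIs of 6 immune genes. The UMIs of all cells of a class were added up and given as counts per 1000000 UMIs of that class (CPM), with exact Poisson 95% intervals. With 1 library per group there was no test. Intervals cover counting error only, not the spread between mice or implants. A gene with 10 or more UMIs on either side of a comparison was counted as measured, and called higher or lower once the levels were 1.5-fold or more apart.

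A pair of promoters is shown because these genes had the highest ratios of IgG against Matrigel in mesenchymal cells, the receptor Ptch1 among the members and the Notch target Hey2 among the other pathway genes. Each is the stretch of 250 bases before the RefSeq transcript start (build GRCm38.p6), read 5′ to 3′ on the gene's strand. The first lies at chr13:63565736-63565985 and the second at chr10:30842784-30843033, both on the minus strand. Capitals mark a match to the Rbpj motif GTGGGAA, which reads TTCCCAC on the other strand.
Ptch1: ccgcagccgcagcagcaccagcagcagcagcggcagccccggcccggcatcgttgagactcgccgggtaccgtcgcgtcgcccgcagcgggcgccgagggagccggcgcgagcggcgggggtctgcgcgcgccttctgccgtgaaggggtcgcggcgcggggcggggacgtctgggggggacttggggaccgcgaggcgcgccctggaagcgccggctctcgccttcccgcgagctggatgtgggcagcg
Hey2: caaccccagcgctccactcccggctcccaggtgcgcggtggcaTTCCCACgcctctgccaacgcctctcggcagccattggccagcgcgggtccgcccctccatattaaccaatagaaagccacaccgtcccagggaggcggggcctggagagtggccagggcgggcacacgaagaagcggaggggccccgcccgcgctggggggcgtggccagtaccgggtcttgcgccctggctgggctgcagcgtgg
The Hey2 stretch held 1 match, beginning 207 bases before the start, and the Ptch1 stretch held 0. Of the 10 members, 7 had a promoter of 300 bases in the RefSeq table. Gli1, Hes1 and Heyl had no entry there, so the promoters of these known targets were not searched. Of the 7, 0 held the Rbpj motif, which 6.38% of all 32851 promoters did. The Gli motif GACCACCCA, searched on both strands like the first, was in 0 of the 7 and in 0.253% of all. With 7 promoters and shares this low, a count of 0 does not set the members apart. Of the other pathway genes 40 matched the table, with 49 promoters between them, of which 7 held the Rbpj motif, those of Aph1a, Gpr161, Hes5, Hey2, Lfng, Psen2 and Scube3. The RefSeq start of Ptch1 lies inside the annotated gene, which extends further 5′, so other starts of this gene were not searched.

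Around BMP2 with IgG, mesenchymal cells held higher CPM of Ptch1, Notch1 and Notch3 than around Matrigel alone, and lower CPM of Gli2, Notch2, Jag1 and Hes1. Of the 10 members, 4 were called higher and 4 lower. Over all 14339 genes measured in this comparison, 16.6% were called higher and 21.1% lower (37.7% either way), so many genes differed between these libraries. The median log2 ratio of the members was 0.21, against -0.03 for all genes.

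Ptch1 (ENSMUSG00000021466; GRCm38, chromosome 13, 63508328 to 63573598, minus strand, protein-coding) stood at 4.62 CPM (3.70 to 5.70) in mesenchymal cells with Matrigel alone, 16.3 CPM (14.8 to 17.9) with IgG and 8.25 CPM (6.75 to 9.99) with the antibody, from 87, 439 and 105 UMIs. The 3 intervals did not overlap, with the IgG library highest. The IgG against Matrigel ratio was 3.53 (2.80 to 4.49), and it was 3.16 when a cluster led by Col2a1, into which 0 Matrigel cells fell, was left out. Under the alternative settings run on it, this ratio ran from 3.07 to 4.07. Chondrocyte markers moved with Ptch1: 9 markers summed to 23.8, 4229 and 862 CPM in mesenchymal cells of the 3 libraries in that order, with Col9a1 and Hapln1 at 0 with Matrigel alone. Macrophage markers summed to 251, 152 and 141 CPM. Within clusters (described below) the ratio was smaller, at 1.89 (1.06 to 3.25) in cluster 9 and 1.46 (0.367 to 4.24) in cluster 7. The latter came from 4 UMIs with IgG and 24 with Matrigel alone. Cluster 5, with 66.2% of the IgG mesenchymal cells, held 13 Matrigel cells, too few for such a ratio. The part of other cell types in the result was not tested further.

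Gli1 (ENSMUSG00000025407; chromosome 10, 127329882 to 127341974, minus strand), the other transcriptional target of the pathway, gave few UMIs: 15, 24 and 6, or 0.796, 0.891 and 0.472 CPM in the same order. Its IgG against Matrigel ratio was 1.12 (0.563 to 2.29). The intervals of its levels overlapped, so at this depth no difference in Gli1 was detectable beside that in Ptch1.

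Gli2 (ENSMUSG00000048402; chromosome 1, 118834132 to 119053619, minus strand) stood at 5.04 CPM (4.08 to 6.17) with Matrigel alone, 1.34 CPM (0.936 to 1.85) with IgG and 0.786 CPM (0.377 to 1.45) with the antibody. The Matrigel library was the highest, outside the intervals of the others, and the IgG against Matrigel ratio was 0.265 (0.175 to 0.393). Within cluster 9 (described below), the cluster with the highest Gli2 level, this ratio was 0.702 (0.367 to 1.25), inside the fold. Gli3 (ENSMUSG00000021318; chromosome 13, 15463235 to 15730026, plus strand) was close to level, at 32.2, 39.4 and 36.8 CPM, with a ratio of 1.22 (1.11 to 1.35) that is under the fold used for a call. Gli3 gave 84.6% of all Gli UMIs of mesenchymal cells with Matrigel alone, 94.6% with IgG and 96.7% with the antibody, while the share of Gli2 was 13.3%, 3.21% and 2.07%. These are shares of UMIs counted at the 3′ end, with no correction for transcript length.

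**Figure D1:**
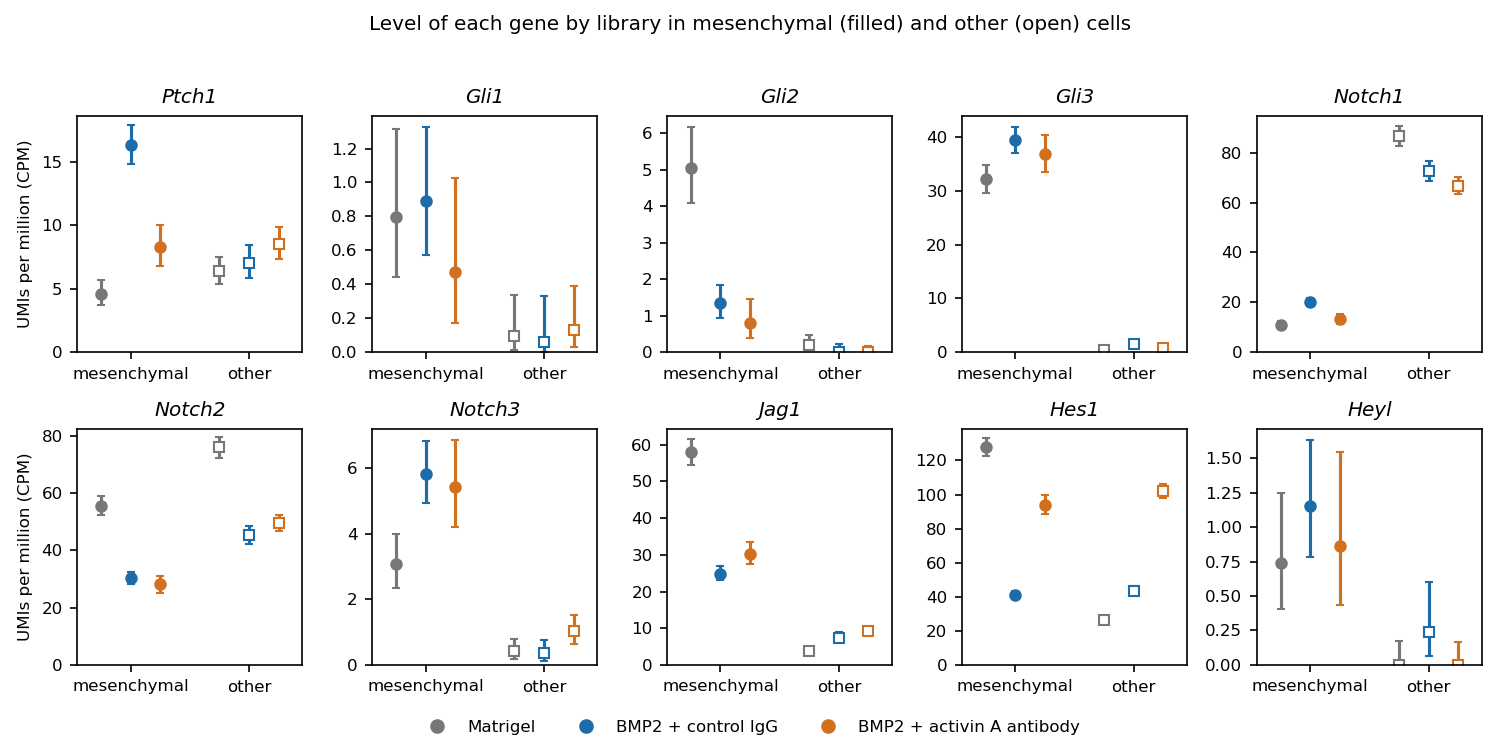
CPM of each of the 10 genes (vertical axis, from 0, each panel on its own scale) in mesenchymal cells (filled circles) and other cells (open squares) of the Matrigel (grey), IgG (blue) and antibody (orange) libraries. Bars are exact Poisson 95% intervals for counting error. In mesenchymal cells Ptch1 is highest with IgG at 16.3 CPM, and Hes1 is lowest there at 41.0 CPM.

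The Notch receptors differed in direction. Notch1 (ENSMUSG00000026923; chromosome 2, 26457903 to 26516663, minus strand) stood at 10.9 CPM (9.45 to 12.5), 20.1 CPM (18.5 to 21.9) and 13.2 CPM (11.3 to 15.4) in mesenchymal cells of the 3 libraries in that order. The IgG library was the highest, and the ratio against Matrigel was 1.85 (1.57 to 2.18). Notch2 (ENSMUSG00000027878; chromosome 3, 98013527 to 98150361, plus strand) went the other way, at 55.5 CPM (52.2 to 59.0), 30.4 CPM (28.3 to 32.6) and 28.1 CPM (25.3 to 31.2). Its ratio was 0.547 (0.499 to 0.600), with both BMP2 libraries below the Matrigel library. Notch3 (ENSMUSG00000038146; chromosome 17, 32120820 to 32166852, minus strand), a receptor best known in mural cells of vessels, stood at 3.08, 5.83 and 5.42 CPM from 58, 157 and 69 UMIs. Its ratio of IgG against Matrigel was 1.89 (1.39 to 2.60). As shares of the UMIs of all Notch receptors, Notch2 went from 77.8% with Matrigel alone to 50.5% with IgG and 56.5% with the antibody, and Notch1 from 15.2% to 33.4% and 26.5%.

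The ligand Jag1 (ENSMUSG00000027276; chromosome 2, 137081456 to 137116644, minus strand) stood at 57.9 CPM (54.5 to 61.4) with Matrigel alone, 24.9 CPM (23.0 to 26.8) with IgG and 30.3 CPM (27.4 to 33.5) with the antibody. Both BMP2 libraries were below Matrigel, and the IgG against Matrigel ratio was 0.430 (0.390 to 0.473). Hes1 (ENSMUSG00000022528; chromosome 16, 30064384 to 30067796, plus strand), a repressor induced by Notch, stood at 128 CPM (123 to 133), 41.0 CPM (38.6 to 43.5) and 93.9 CPM (88.7 to 99.4) from 2409, 1104 and 1195 UMIs. The IgG library was the lowest, at a ratio of 0.320 (0.298 to 0.344) against Matrigel. Heyl (ENSMUSG00000032744; chromosome 4, 123233556 to 123249875, plus strand), another Notch-induced repressor, gave 14, 31 and 11 UMIs. Its ratio of 1.55 (0.799 to 3.15) passed the fold used for a call, but its interval includes 1. The ratio was 1.27 with a collagen share of at least 2%. In the clusters named mesenchymal (described below), Heyl was level, at 1.04 CPM with Matrigel alone and 1.05 CPM with IgG, from 12 and 23 UMIs. Cluster 21, unnamed and with 42.4% of its IgG cells under the mesenchymal rule, held 26.0 CPM with IgG. The part of that cluster in the Heyl ratio was not tested.

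The share of cells in which a transcript was seen was compared at equal depth. With each mesenchymal cell thinned to 1000 UMIs, which left out 70, 35 and 14 cells, Hes1 was seen in 10.3% of Matrigel cells (8.93 to 11.7), 3.33% of IgG cells (2.46 to 4.39) and 9.88% of antibody cells (7.57 to 12.6). Without thinning these shares were 49.5%, 25.6% and 49.4%. The IgG library was the lowest, as in its CPM. Ptch1 was seen in 0.575% (0.288 to 1.03), 1.73% (1.12 to 2.55) and 0.693% (0.189 to 1.77) of thinned cells, against 4.09%, 21.7% and 13% unthinned. At 3000 UMIs its shares were 4.67% (3.62 to 5.92) with IgG and 3.15% (1.84 to 4.99) with the antibody. The IgG and antibody intervals overlapped at both depths, so these shares do not resolve a difference in Ptch1 between the BMP2 libraries. Thinned shares of Jag1 were 5.54%, 2.01% and 3.12%. Those of Notch2 were 5.54% (4.56 to 6.67), 4.30% (3.31 to 5.47) and 2.08% (1.08 to 3.60), and at 3000 UMIs they were 16.8%, 9.56% and 9.44%, so no difference in Notch2 between IgG and antibody is read from them. Gli3 was seen in 2.77%, 3.26% and 2.95% of thinned mesenchymal cells and in 0.0167%, 0.106% and 0.0210% of the other cells. With IgG, part of its UMIs in other cells came from cells of the mesenchymal clusters (below), so these shares are not background alone.

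Against IgG, the activin A antibody library held less Ptch1 and Notch1 in mesenchymal cells and more Hes1. Of the 10 members, 1 was called higher and 4 lower, where 9.88% of 14008 genes were called higher and 12.7% lower (22.6% either way). The median log2 ratio was -0.22 for the members and -0.07 for all genes. Both comparisons share the IgG library, so a chance deviation of that library would enter them in opposite directions. The ratio of antibody against IgG was 0.507 (0.405 to 0.628) for Ptch1 and 0.657 (0.549 to 0.782) for Notch1. For Hes1 it was 2.29 (2.11 to 2.49). Gli1 at 0.530 (0.177 to 1.33) and Gli2 at 0.588 (0.260 to 1.21) passed the fold, but with 6 and 10 UMIs with the antibody their intervals include 1. The other 5 members were within the fold: Gli3 at 0.934, Notch2 at 0.926, Notch3 at 0.931, Jag1 at 1.22 and Heyl at 0.752. Heyl rested on 11 UMIs in 4 antibody cells. Its ratio ran from 0.284 to 2.09 over 10 alternative settings, of which 4 kept it within the fold. With no doublets removed, Gli1 stood at 0.760 and Notch1 at 0.695, both inside the fold. With each cell given equal weight, Ptch1 stood at 0.709, again inside it.

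**Figure D2:**
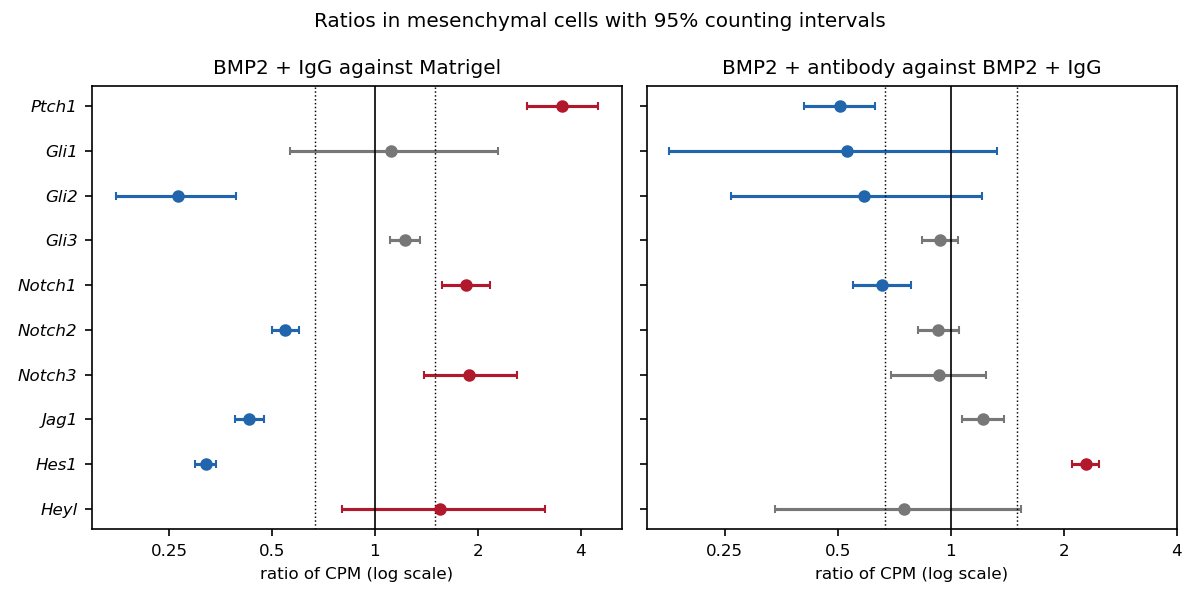
Ratio of CPM between libraries in mesenchymal cells (horizontal, log scale) for each gene, IgG against Matrigel on the left and antibody against IgG on the right. Bars are exact 95% counting intervals, dotted lines the fold of 1.5, red and blue points genes called higher and lower, and grey points genes within the fold. Ptch1 is at 3.53 on the left and 0.507 on the right, and Hes1 at 0.320 and 2.29.

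Genes of tissue handling moved with Hes1. The summed level of 17 dissociation and immediate early genes, which tissue handling can induce, was 2792 CPM in mesenchymal cells with Matrigel alone, 1676 CPM with IgG and 2467 CPM with the antibody, the same order as Hes1. Of the 17, 15 were lower and 1 higher with IgG than with Matrigel alone, and 12 were higher and 0 lower with the antibody than with IgG. All 17 were detected in each library. Their part in the Hes1 values was not tested. Within cluster 5, the main mesenchymal cluster of both BMP2 libraries, Hes1 stood at 37.9 CPM with IgG and 66.6 CPM with the antibody, and the handling genes at 1639 and 2219 CPM. In cluster 7, led by Pi16, Hes1 stood at 131, 93.0 and 218 CPM in the 3 libraries and the handling genes at 2731, 2107 and 3504 CPM. In cluster 9, led by Cxcl14, Hes1 stood at 123 CPM with Matrigel alone and 128 CPM with IgG, while the handling genes stood at 2646 and 2021 CPM. Cycling genes, summed over 6 genes, were at 385, 588 and 612 CPM, and their part was not tested either.

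**Figure D3:**
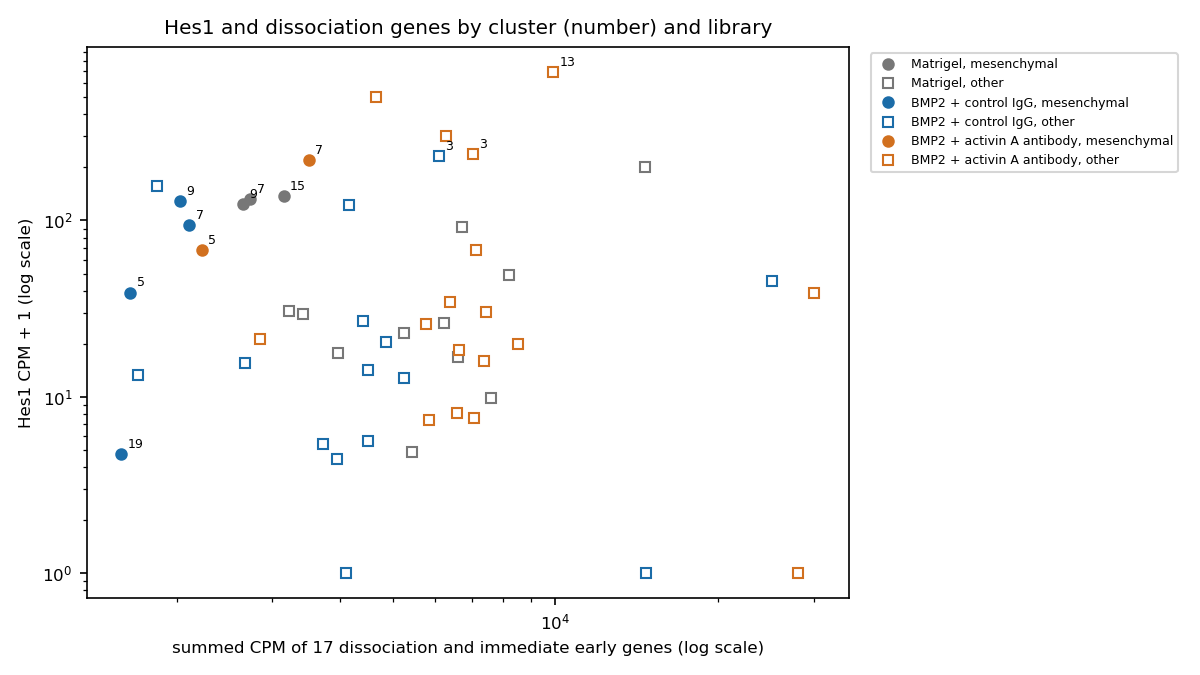
Hes1 level plus 1 CPM (vertical, log scale) against the summed level of 17 dissociation and immediate early genes (horizontal, log scale) for the 52 combinations of cluster and library with at least 50 cells. Colours are libraries, filled circles clusters with over 90% mesenchymal cells and open squares the rest; numbers name the clusters described in the text. Cluster 19 of the IgG library is low on both axes, with Hes1 at 3.75 CPM.

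The mesenchymal cells fell into 5 main clusters, and the levels differed among them within 1 library. Members, other pathway genes and the 3 collagens had been kept out of the genes used for clustering. Cluster 5, led by Cck and Inhba, held 13, 991 and 334 cells of the 3 libraries in that order. Cluster 7, led by Pi16, held 931, 74 and 155, cluster 9, led by Cxcl14, 702, 131 and 41, cluster 15, led by F2rl1, 314, 2 and 25, and cluster 19, led by Col2a1, 0, 247 and 18. Clusters 5, 9 and 15 carried the mesenchymal markers fixed for naming, while 7 and 19 stayed unnamed, cluster 7 because Tek, an endothelial marker, was among its leading genes, and cluster 19 because mesenchymal and chondrocyte markers tied. Cell numbers are given to locate the cells: with 1 library per group, a cluster mostly of 1 library may be that library and not a cell type.

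The Col2a1 cluster stood apart in both pathways. Among IgG cells it held 25.8 CPM of Ptch1 against 15.2 CPM in cluster 5, a ratio of 1.70 (1.36 to 2.11). Hes1 was at 3.75 CPM against 37.9 CPM, a ratio of 0.0988 (0.0573 to 0.159), and Jag1 at 7.50 CPM against 27.9 CPM, a ratio of 0.268 (0.184 to 0.380). Notch1, Notch2 and Notch3 were also lower, at ratios of 0.600, 0.655 and 0.445. Scube1, a secreted protein that helps release Hedgehog ligands, stood at 44.8 CPM against 8.26 CPM, a ratio of 5.42 (4.39 to 6.70). Leaving this cluster out moved the IgG against Matrigel ratio of Hes1 from 0.320 to 0.377 and that of Jag1 from 0.430 to 0.489.

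Other clusters led for other members. Gli2 stood at 11.2 CPM in cluster 9 of the Matrigel library, against 1.70 CPM in cluster 7 and 0.664 CPM in cluster 15. Notch1 was low in cluster 7, at 2.84 CPM with Matrigel alone, where cluster 9 held 16.4 CPM and cluster 15 held 12.8 CPM. Notch2 stood at 76.9 CPM in cluster 7 and at 27.0 CPM in cluster 9 of that library. Jag1 stood at 87.3 CPM in cluster 15, 66.1 CPM in cluster 7 and 31.9 CPM in cluster 9 of the same library.

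Libraries were then compared within a cluster. In cluster 5 the antibody against IgG ratio was 0.520 (0.397 to 0.673) for Ptch1, 0.686 (0.564 to 0.830) for Notch1 and 1.76 (1.58 to 1.96) for Hes1, where all mesenchymal cells gave 0.507, 0.657 and 2.29. Gli3 in that cluster was at 0.970 (0.857 to 1.10), and Jag1 at 0.791 (0.671 to 0.931), where all mesenchymal cells gave 1.22. For Hes1 the antibody against IgG ratio was 2.34 (1.83 to 3.04) in cluster 7 and 1.11 (0.868 to 1.40) in cluster 9, the latter inside the fold. In cluster 9 the IgG against Matrigel ratio of Hes1 was 1.04 (0.898 to 1.21), that of Notch2 1.08 (0.778 to 1.48) and that of Notch1 0.923 (0.583 to 1.41), where all mesenchymal cells gave 0.320, 0.547 and 1.85. Ptch1 in cluster 9 was at 1.89 (1.06 to 3.25) from 21 and 43 UMIs. Gli2 in cluster 9 was at 0.702 from 14 and 77 UMIs, and Jag1 at 0.702 (0.488 to 0.987), against 0.265 and 0.430 over all mesenchymal cells. In cluster 7 Hes1 was at 0.712 (0.555 to 0.902) and Jag1 at 0.600 (0.406 to 0.859), and Gli2 had 2 UMIs with IgG. The IgG cells of clusters 7 and 9 number 74 and 131, so most IgG mesenchymal cells are not in these within-cluster values.

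**Figure D4:**
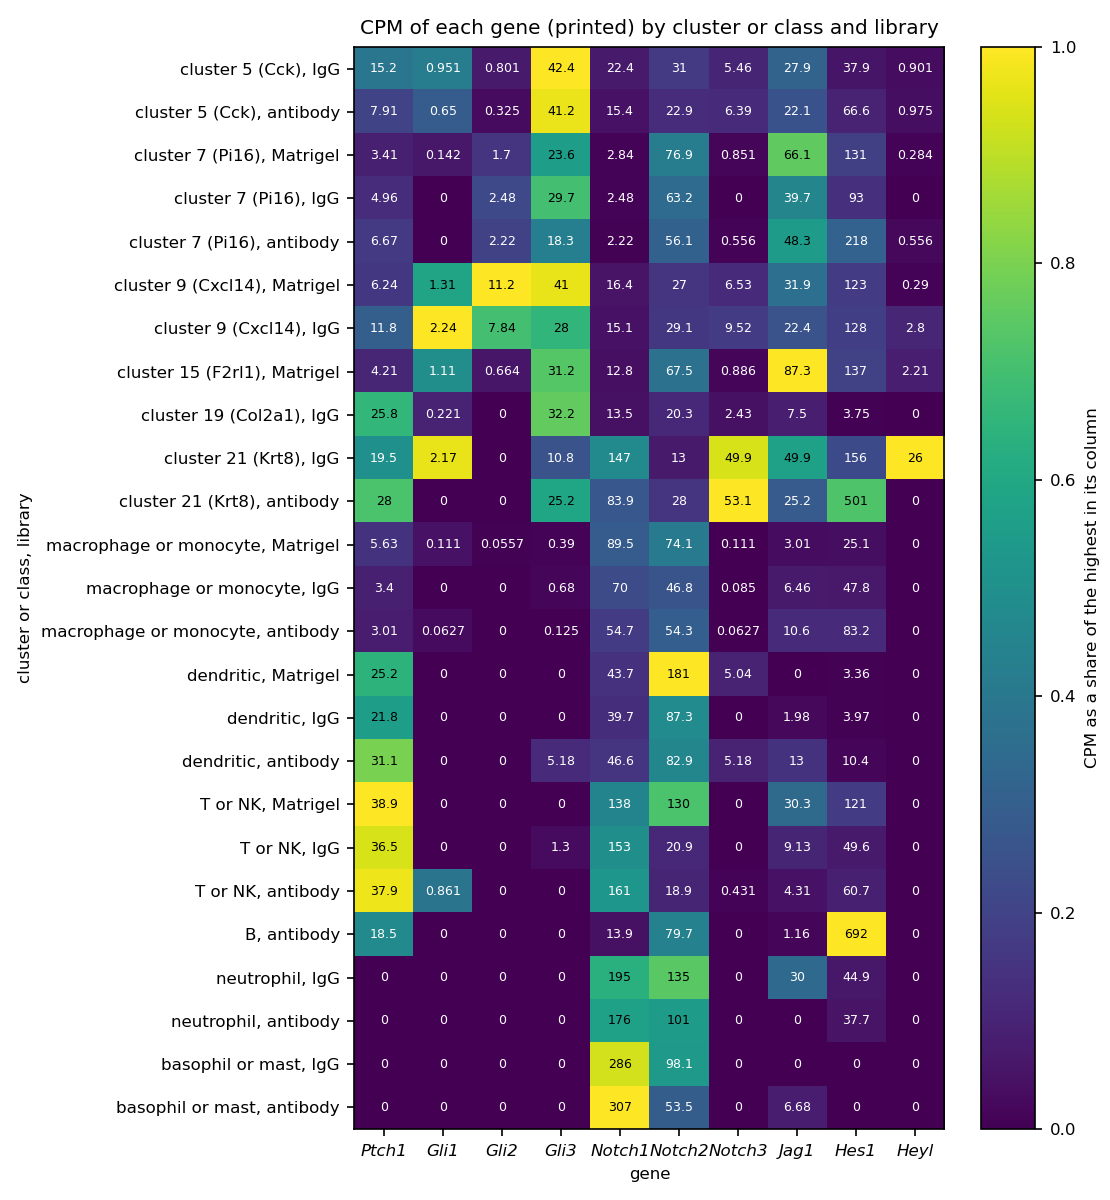
CPM of each gene (printed in the cells) in the mesenchymal clusters 5, 7, 9, 15 and 19, in cluster 21 and in the named immune classes, by library, where a combination had at least 50 cells. Colour is the level as a share of the highest in the same column, so colours compare 1 gene across rows only. B cells of the antibody library lead for Hes1 at 692 CPM, and cluster 21 of the IgG library leads for Heyl at 26.0 CPM.

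Mesenchymal and other cells of the same library were compared next. In mesenchymal cells, 7 of 10 members were higher with Matrigel alone and 7 of 10 with IgG, with 1 lower in each, and with the antibody 5 of 9 measured members were higher and 2 lower. Among all genes measured, 32.7%, 32.3% and 30.2% were called higher and 28.9%, 30.4% and 32.6% lower (61.6%, 62.6% and 62.8% either way). Gli3 was the most restricted to mesenchymal cells among members with UMIs in each class, at 0.421, 1.48 and 0.845 CPM in other cells and ratios of 76.4, 26.6 and 43.5. Gli2 gave 4, 0 and 0 UMIs and Heyl 0, 4 and 0 UMIs in the other cells. Gli1 gave 2, 1 and 3 there. Notch1 was the member called lower in all 3 libraries, with 86.6, 72.7 and 66.7 CPM in other cells and ratios of 0.126, 0.277 and 0.198. Hes1 was at a ratio of 4.90 (4.47 to 5.38) with Matrigel alone but 0.946 (0.860 to 1.04) with IgG and 0.921 (0.858 to 0.988) with the antibody. Ptch1 likewise differed by library, at 0.726, 2.32 and 0.967.

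Free RNA sets a background for the other cells. A list of 8 mesenchymal genes used to gauge it stood in macrophages at 0.618% to 1.76% of their mesenchymal level with Matrigel alone, 1.01% to 1.95% with IgG and 0.293% to 0.589% with the antibody. Gli3 in macrophages lay within these ranges at 1.21%, 1.73% and 0.341%, from 7, 8 and 2 UMIs. Whether these UMIs are free RNA was not tested. Jag1 lay above them at 5.20%, 26.0% and 34.9%. Ptch1, at 122%, 20.9% and 36.4%, and Hes1, at 19.6%, 117% and 88.5%, lay far above.

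In the other cells, 3 of 6 measured members were called higher with IgG than with Matrigel alone and 1 lower, where 18.2% and 10.4% of 13920 genes were (28.6% either way). Jag1 stood at 3.74, 7.45 and 9.25 CPM in the Matrigel, IgG and antibody libraries, with an IgG against Matrigel ratio of 1.99 (1.49 to 2.67). A macrophage cluster led by Olr1, Kazald1 and Hopx, which was 0.564% of the other cells with Matrigel alone and 13.5% with IgG, gave 32.5% of the Jag1 UMIs with IgG. Macrophages without this cluster stood at 2.92 CPM (2.18 to 3.83) and 3.55 CPM (2.47 to 4.93), with overlapping intervals. With a collagen share of at least 5% as the cut, the Jag1 ratio was 0.930. This cut moves mesenchymal cells with less collagen into the other cells. With Matrigel alone, 508 cells at 2% to 5% collagen held 280 Jag1 and 551 Hes1 UMIs. Ratios of other cells at this cut thus mix both classes. Hes1 stood at 26.1, 43.3 and 102 CPM, with a ratio of 1.66 (1.48 to 1.86), which was 0.894 at that cut. Notch2 was lower at 0.596 (0.546 to 0.650), as it was in mesenchymal cells. Gli3 passed the fold at 3.51 (1.58 to 8.55) from 9 and 25 UMIs. Of the 25 with IgG, 8 came from macrophages, 8 from 12 cells of the mesenchymal clusters that lay under the collagen cut, and 7 from unnamed clusters. Against IgG, 2 of 7 measured members were higher with the antibody and 1 lower, where 10.7% and 13.3% of 14176 genes were (24% either way). Hes1 was higher at 2.35 (2.16 to 2.56). Notch3 was at 2.88 (1.14 to 8.66) from 6 and 23 UMIs, of which 82.6% with the antibody came from unnamed clusters. Gli3 was at 0.572 (0.298 to 1.08).

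In the BMP2 libraries, most Hes1 UMIs of the other cells came from few groups of cells. With Matrigel alone, macrophages gave 450 of 558. B cells, of which the antibody library held 530 and the other libraries 1 and 4, stood at 692 CPM (638 to 750) and gave 26.1% of the Hes1 UMIs of other cells in that library. The macrophage cluster led by Olr1 stood at 224, 228 and 236 CPM in the 3 libraries, with overlapping intervals. This cluster made up 0.564%, 13.5% and 20.1% of the other cells and gave 4.84%, 58.8% and 49.1% of their Hes1 UMIs. Without it, macrophages stood at 23.7, 13.3 and 17.9 CPM, with the IgG library lowest. Without B cells and this cluster the other cells stood at 25.0, 19.97 and 33.7 CPM, so that IgG was below Matrigel, as in mesenchymal cells. Both groups left out were high in Hes1, so this turn is a description. Further groups with high Hes1 stayed in. Cluster 16, led by Gzma, stood at 121 CPM with IgG and 299 CPM with the antibody, and cluster 22 at 201 CPM with Matrigel alone. The handling genes in other cells summed to 5100, 4391 and 6843 CPM, and 13 of 17 were higher with the antibody than with IgG. Their part was not tested.

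Ptch1 outside the mesenchymal cells was highest, among the named classes, in T and NK cells. They stood at 38.9, 36.5 and 37.9 CPM in the Matrigel, IgG and antibody libraries, from 9, 28 and 88 UMIs, and did not differ beyond their intervals. Among them cluster 14, led by Ctla4 and holding Foxp3 among its leading genes, stood at 57.7 CPM (35.7 to 88.2) with IgG and 61.2 CPM (45.3 to 81.0) with the antibody. Dendritic cells stood at 25.2, 21.8 and 31.1 CPM, with intervals that overlap those of T and NK cells, and macrophages at 5.63, 3.40 and 3.01 CPM. T and NK cells gave 45.8% of the Ptch1 UMIs of other cells with the antibody, where they were 19.3% of those cells. Without B, T and NK cells the ratio of Ptch1 in other cells was 0.938 for IgG against Matrigel and 0.809 for antibody against IgG, in place of 1.11 and 1.21, and mesenchymal against other cells of the antibody library was 1.81 in place of 0.967.

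Notch receptors were spread over the immune cells. Notch1 reached 286 CPM (199 to 398) and 307 CPM (225 to 410) in basophils or mast cells of the IgG and antibody libraries, stood at 138, 153 and 161 CPM in T and NK cells of the 3 libraries, and at 89.5, 70.0 and 54.7 CPM in macrophages. B cells held 13.9 CPM. Notch2 stood at 181, 87.3 and 82.9 CPM in dendritic cells, with the Matrigel library highest, and at 130, 20.9 and 18.9 CPM in T and NK cells. The T and NK class differed in make-up between libraries. With Matrigel alone, 104 of its 163 cells lay in cluster 22, led by Cd163l1 and Tcrg-C4. With the antibody, 598 of 981 lay in cluster 12, led by Lef1. The dendritic class differed too: cluster 20, led by Xcr1, held 138 of its 173 cells with Matrigel alone. It held 44 of 98 with IgG and 20 of 55 with the antibody. Levels of both classes thus compare different mixes of cells. Notch3 was highest in cluster 21, at 47.3, 49.9 and 53.1 CPM from 4, 23 and 19 UMIs. This cluster of 31, 99 and 55 cells was led by Krt8, Csn3 and Krt18, held Myod1 among its leading genes, and stayed unnamed, with 43.8% of its cells under the mesenchymal rule. It also held the highest Heyl level, 26.0 CPM (13.4 to 45.5) with IgG, with 0 UMIs in the other 2 libraries.

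Hedgehog ligands and the Dll ligands of Notch gave few UMIs. Shh gave 0 UMIs in each class of each library, which allows up to 0.236 CPM in the shallowest sum. Ihh gave 6, 4 and 1 UMIs in mesenchymal cells of the 3 libraries in that order and 3, 5 and 4 in other cells, and Dhh gave 7, 8 and 5 in mesenchymal cells and 1, 5 and 5 in other cells. In the Col2a1 cluster of the IgG library, Ihh gave 2 UMIs. Of the Notch ligands other than Jag1, Jag2 was found almost wholly in other cells, at 6.64, 12.4 and 8.63 CPM, against 2, 6 and 5 UMIs in mesenchymal cells. Dll1 gave 1, 8 and 26 UMIs in other cells, of which 22 of the antibody library came from B cells. Dll4, a ligand of vessel tips, gave 6, 43 and 10 UMIs in other cells, the 43 from 10 cells, and 0 in mesenchymal cells. Dll3 gave 1, 4 and 0 UMIs in mesenchymal cells. Endothelial markers were low throughout: 7 markers summed to 60.5, 10.1 and 29.0 CPM in mesenchymal cells and to 11.0, 103 and 70.6 CPM in other cells, and no cluster was named endothelial.

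The other genes of both pathways were taken as a list of 18 Hedgehog and 31 Notch genes. In mesenchymal cells, 14 of the 18 Hedgehog genes were measured between the IgG and Matrigel libraries, of which 1 was higher and 9 lower, with a median log2 ratio of -0.70. Of the 31 Notch genes 24 were measured, with 3 higher and 9 lower and a median of -0.22. All genes had a median of -0.03, with the shares called given above for this comparison.

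Scube1 had the highest Hedgehog ratio, with 0.690 CPM with Matrigel alone, 13.5 CPM with IgG and 3.46 CPM with the antibody, at 19.6 (11.3 to 37.1) for IgG against Matrigel. Gas1, a co-receptor that presents the ligand to Ptch1, stood at 233, 51.3 and 110 CPM, at 0.220 (0.207 to 0.234). Hhip, a decoy receptor and pathway target, gave 17, 1 and 0 UMIs, at 0.0411 (0.000984 to 0.262). Hhip thus stood lower in the library in which Ptch1 stood higher.

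Among Notch genes, the repressor Hey2 gave 2, 65 and 14 UMIs, at 22.7 (6.04 to 192) for IgG against Matrigel, opposite to Hes1. Its 65 UMIs came from 58 cells. Notch4 stood at 1.91, 3.90 and 3.07 CPM, at 2.04 (1.38 to 3.07). Lfng, a glycosyltransferase that tunes ligand choice by Notch receptors, stood at 4.89, 8.28 and 4.01 CPM, at 1.69 (1.32 to 2.18). Dtx4, a ubiquitin ligase acting on Notch, stood at 14.7, 4.08 and 6.60 CPM, at 0.278 (0.220 to 0.347).

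Between the antibody and IgG libraries, 3 of 13 measured Hedgehog genes were higher and 3 lower, and 2 of 24 Notch genes were higher and 4 lower, where 9.88% of all genes measured were higher and 12.7% lower. The medians of their log2 ratios were 0.03 and -0.02, against -0.07 for all genes. Among the highest ratios were 2.15 (2.00 to 2.32) for Gas1, 1.62 (1.20 to 2.17) for Dtx4 and 1.53 (1.25 to 1.87) for Disp1, which releases Hedgehog ligands from the cells that make them. The lowest were 0.254 (0.0491 to 0.833) for Hey1 from 3 and 25 UMIs, 0.256 (0.183 to 0.351) for Scube1, 0.456 (0.236 to 0.821) for Hey2 and 0.484 (0.350 to 0.659) for Lfng. Of the repressors that Notch induces, Hey1 and Hey2 were lower with the antibody and Hes1 was higher. Heyl, at 0.752, had too few UMIs to be placed, with 11 in 4 antibody cells.

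**Figure D5:**
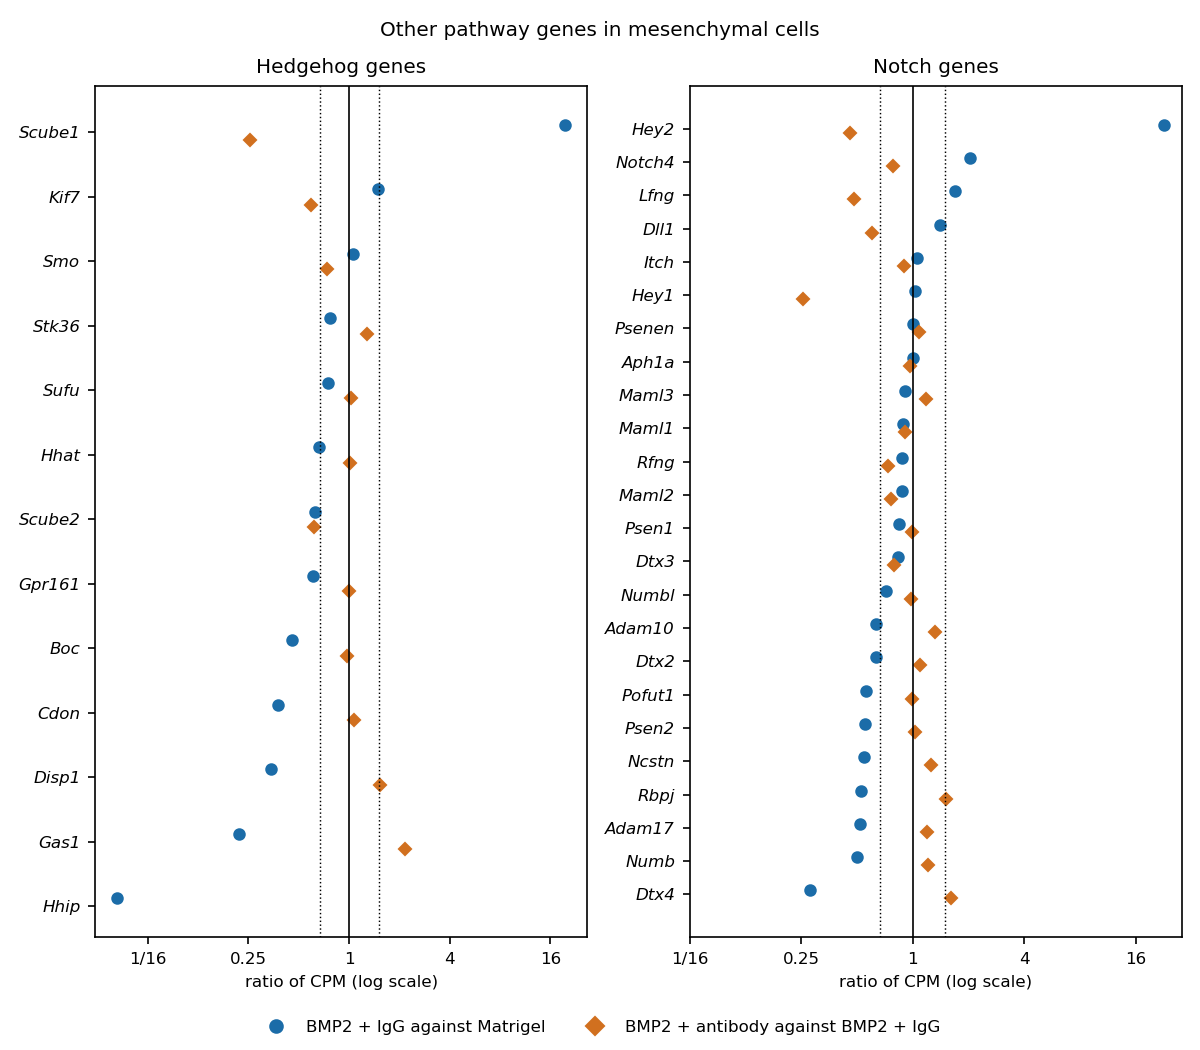
Ratio of CPM in mesenchymal cells (horizontal, log scale) for other Hedgehog genes (left) and Notch genes (right) with at least 10 UMIs in 1 library, for IgG against Matrigel (blue circles) and antibody against IgG (orange diamonds). Dotted lines mark the fold of 1.5. The comparisons share the IgG library; Scube1 lies at 19.6 and 0.256, and Gas1 at 0.220 and 2.15.

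Genes with the most similar pattern were taken for each member over the 52 combinations of cluster and library, as Pearson r of log2(CPM + 1) among 13655 genes. Points of 1 library share its depth and free RNA, so r is a description. Gli3 had the closest neighbours: Dzip1l at 0.967, Hoxa10 at 0.965 and Slc2a10 at 0.963. Gli2 was closest to Fras1 (0.944), Angpt4 (0.924) and Mmp3 (0.917), Notch3 to Megf10 (0.963), Fam160a1 (0.954) and Mme (0.938), and Heyl to Trp63 (0.917), Krt14 (0.893) and Pld5 (0.876). Notch1 was closest to Slc9a3r1 (0.838), Tgfb1 (0.826) and AI467606 (0.822), and Ptch1 to Eef2 (0.805), Rpl5 (0.790) and Rpl17 (0.789), genes of the translation machinery. For Jag1 the closest were A430105I19Rik (0.741), Lamc1 (0.739) and Fxyd1 (0.727), and for Gli1 Ddc (0.695), Kcnj15 (0.690) and Sh3rf3 (0.686). Gli1 reached at most 2.77 CPM at any point, so its r values rest on few UMIs. Heyl was highest at 26.0 CPM, in the cluster led by Krt8 of the IgG library. In the named mesenchymal clusters it stood at 1.04, 1.05 and 0.943 CPM in the Matrigel, IgG and antibody libraries. How far the r values of Heyl rest on its highest point was not tested. The 13655 genes had to reach 10 CPM at some point, a limit not put on the members. Notch2 and Hes1 had the weakest, led by Plekho2 (0.652), Man2b1 (0.643) and Fes (0.634), and by Man1a2 (0.596), Dnajb4 (0.595) and Rcn2 (0.572).

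Ligand and target were also compared cell by cell, in mesenchymal cells thinned to 3000 UMIs. Jag1 was seen in 17% of Matrigel cells with Hes1 (13.8 to 20.6) and in 13.6% of those without (11.8 to 15.6), and in 6.82% and 6.91% of IgG cells. In the antibody library it was seen in 14.9% (8.93 to 22.8) and 7.51% (5.19 to 10.4), from 17 cells with both. The intervals of the cells with and without Hes1 overlapped in each library, which does not show that the shares are equal. Other pairs of members were counted in the same way and are not given here.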

How the data were processed

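Single-cell RNA of 3 libraries was read with the 10x 3′ v3 chemistry. Per the submitters' processing notes, the authors used Cell Ranger 3.0.2 and mm10; the deposited values are raw UMI counts per gene and barcode, neither normalized nor integrated. Cells were kept here with at least 300 genes, 500 UMIs and at most 15% mitochondrial UMIs. Scrublet's automatic threshold marked 2, 3 and 4 cells and was not used. Instead, barcodes with top scores were dropped in proportion to loading, 0.8% for every 1000. Counts were summed per class and library, with exact Poisson, binomial and Clopper-Pearson intervals at 95%. The ratios and their intervals were tested on simulated Poisson counts per library with planted ratios. That simulation held no cells, so it does not cover UMIs gathered in few cells. Clusters came from scanpy 1.11.5 (3000 variable genes, 30 components, 15 neighbours, resolution 1), without integration. A count of 0 was given the limit of 3 counts. With 1 library per group, no p-value was computed. Named beside the 10 members were the pathway ligands, the 4 highest and 4 lowest pathway ratios in each mesenchymal comparison and the 3 most similar genes per member; Gas1, Scube1 and Hey2 recur from that rule, and others named within clusters were chosen after their values were seen. Not every gene that the rule picks is reported or drawn here, while the counts cover the whole lists. The members and lists were chosen with earlier results of these data known. Alternatives covered the collagen cut, doublets, filters, scaling, weighting, fold and minimum count.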

Additional observations from a re-analysis of the deposited data

Results flagged for a closer look

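Jag1 and Hes1 differed between cell classes in the comparison of IgG against Matrigel. The Jag1 ratio was 0.430 in mesenchymal cells and 1.99 in other cells. The Hes1 ratio was 0.320 in mesenchymal cells and 1.66 in other cells. With 1 library per group, the difference between the classes was not tested. It depended on which cells were counted. Without B cells and a macrophage cluster led by Olr1, Kazald1 and Hopx, Hes1 in other cells stood at 25.0 CPM with Matrigel alone and 19.97 CPM with IgG, so the direction turned. Both groups left out were high in Hes1. Macrophages without that cluster stood at 23.7 and 13.3 CPM of Hes1, and at 2.92 and 3.55 CPM of Jag1. Within cluster 9 of the mesenchymal cells the Hes1 ratio was 1.04 and the Jag1 ratio 0.702.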

How the results depend on the processing

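No paired analysis was possible because each group is 1 library and nothing pairs them; for the same reason no replicate could be left out. Of 428 alternative values of the 39 called member ratios, 423 lay on the same side of 1 and 407 kept the call. Those on the other side came with stricter collagen cuts: Notch3 for antibody against IgG in other cells was 0.657 at 2% and 0.712 at 5%, Gli2 for antibody against IgG in mesenchymal cells was 1.30 at 5%, and Jag1 and Hes1 for IgG against Matrigel in other cells were 0.930 and 0.894 at 5%. A stricter collagen cut moves mesenchymal cells into the other cells, so values of other cells at 2% and 5% mix both classes. Of 38 alternative share ratios 1 crossed over, Notch2 for antibody against IgG in mesenchymal cells, at 1.03 without thinning.

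Counts of called members moved as follows. Shares of all genes called were computed at the main settings only, so these counts have no background to be read against. For IgG against Matrigel in mesenchymal cells, 1 was higher at a fold of 2. In other cells, 5 were higher and 3 lower at 5% collagen, 1 higher and 0 lower at a fold of 2, and 3 lower with 1 UMI required. For antibody against IgG in mesenchymal cells, 2 were higher and 2 lower with no doublet removal and with every barcode kept, 2 higher with cells weighted equally, and 0 lower at a fold of 2. In other cells, 1 was higher at 2% and 5% collagen, without the 10 top cells and with 30 UMIs required. There 0 were lower at 0.5% collagen, with no doublet removal, with every barcode kept, at a fold of 2 and with 30 UMIs, and 3, 4 and 2 were lower at 2%, at 5% and with 1 UMI. For mesenchymal against other cells, 2 were lower in the IgG library at 0.5% collagen, with cells weighted equally, without the 10 top cells and without B, T and NK cells, and 2 in the Matrigel library at 5%. In the antibody library 3 were higher at 5%, without the 10 top cells and with 30 UMIs, and 1 lower at 5% and at a fold of 2. Of the other pathway genes in mesenchymal cells, 8 were lower for IgG against Matrigel at a fold of 2. For antibody against IgG, 2 were higher and 4 lower at that fold, and 3 higher with no doublet removal. The cause was not tested. Median-ratio scaling shifted antibody against IgG in other cells by -0.12 (log2) and the other comparisons by at most 0.07 in size. Leaving out the Col2a1 cluster, or B, T and NK cells, was chosen after seeing the data. Gli1, Gli2 and Heyl had too few UMIs for small differences to be detectable.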
